A study of Mus musculus with 9 samples.

Results

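Messenger RNA of 36 genes for ribosome biogenesis and the nucleolus was examined in CD4+ T cells with and without CD4-Cre deletion of Kdm6a. The genes were taken by symbol from a fixed list, and all 36 had an ID among the 39017 gene IDs of the count table. All 36 also passed the filter on low counts, the lowest value being 245 reads, for Fbl in the sample labelled cKO 7. The 9 samples were CD4+ T cells from lymph nodes of male C57BL/6 mice, and every mouse carried the floxed/y Kdm6a genotype. The floxed allele is therefore present in the controls too. The 5 WT samples (1, 3, 4, 5 and 9) were CD4-Cre (-/-) and the 4 cKO samples (2, 6, 7 and 8) were CD4-Cre (+/-), where Cre is made under the Cd4 promoter. Only the cKO samples carried Cre, so the presence of Cre and the loss of Kdm6a cannot be told apart. Ages are not given in the labels, and neither do they state that each sample is a mouse of its own. The p-values therefore measure only how these samples spread, and that spread may be technical. The labels state no stimulation, although the name of the deposited table contains the word "stim".

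Ribosome biogenesis starts in the nucleolus, where RNA polymerase I copies the ribosomal DNA into a long precursor RNA. Small nucleolar ribonucleoproteins (snoRNPs) modify that RNA, the small subunit processome folds and cuts its 18S part, and other factors mature the large subunit. T cells enlarge their nucleoli and make many ribosomes when they are activated and divide, and the transcription factor Myc is a known activator of many of the genes involved.

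Kdm6a, the targeted gene, was present at 60.04 to 63.8 CPM (counts scaled to a common library size) in WT, against 41.5 to 44.8 CPM in cKO. The markers of CD4+ T cells summed to between 3212 and 3467 CPM in WT and between 3201 and 3422 CPM in cKO. Within that near-equal sum 7 of the 10 markers passed the test, against 15.8% of all genes in either direction: Cd3d, Cd3g, Trbc1, Trbc2 and Lck fell, Trbc1 the most, by 0.42 on the log2 scale (edgeR adjusted p = 0.0023), while Cd4 and Cd5 rose by 0.13 and 0.23. Of the markers of other cells, those of CD8 T cells summed to 11.9 to 15.1 CPM in WT and 15.1 to 19.1 CPM in cKO, and those of natural killer cells to 7.06 to 20.1 and 12.9 to 45.7 CPM. Most of the natural killer sum came from Eomes, with a mean of 15.1 CPM over the samples, and 2 of the 5 markers were tested. The mean log2 level of those 2 was 1.65 in cKO 2 and 0.09 to 0.47 in the other cKO samples. The CD8 marker Cd8b1 rose by 0.28 (edgeR adjusted p = 0.0296) and the natural killer marker Klrd1, from 1.10 to 3.30 CPM, by 1.61 (adjusted p = 0.0169). B cell markers summed to 240.5 to 351 CPM in WT and 255 to 292 CPM in cKO, nearly all from Ighm, which had a mean of 286 CPM over the samples, with Cd79b next at 1.36 CPM. Of the 6 B cell markers tested, 1 was called lower in cKO and 0 higher (16.7%, against 15.8% of all genes in either direction). Macrophage markers summed to 14.9 to 19.5 and 17.4 to 21.3 CPM, dendritic markers to 2.21 to 3.61 and 2.74 to 3.75 CPM, and stroma and vessel markers, mostly Pecam1, to 96.9 to 119 and 84.4 to 105.5 CPM. Erythroid markers stayed below 1 CPM in sum, and all 4 neutrophil markers were at 0 in every sample. The share of counts from mitochondrial genes ran from 2.31% to 2.46% in WT and from 2.42% to 2.72% in cKO. The part of these markers and shares in the results below was not tested. In bulk RNA such as this, fewer cells of a type and less RNA per cell cannot be told apart.

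The 36 genes were slightly higher in cKO on average, and few passed the test. Gnl3, which encodes the nucleolar GTPase nucleostemin, and Nop56, a core protein of the box C/D snoRNPs that guide methylation of ribosomal RNA, rose, while 34 genes did not pass and none fell (edgeR, adjusted p below 0.05 over 14693 genes). The 2 that rose are 5.56% of the list, against 7.0% of all genes tested, so the share of calls was near the background. No member fell, against 8.82% of all genes. The fitted difference was above 0 in 34 of the 36 genes and in 50.4% of all genes tested. Its median over the 36 was 0.148 on the log2 scale, against 0.0012 over all genes tested. At unadjusted p under 0.05, 18 of the 36 were higher and 0 lower. Of all 14693 genes tested, 2182 were higher and 2390 lower at that level. DESeq2 called 6 members higher and 0 lower, with 7.21% of all genes called higher there. Of all calls over the table, 44.2% were higher in cKO under TMM scaling and 54.2% under upper-quartile scaling. The differences were small throughout, with 21 genes between 0.1 and 0.2 on the log2 scale and the largest, that of Utp20, at 0.26.

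Gnl3 was at 157, 149, 126, 151 and 129 CPM in WT 1, 3, 4, 5 and 9 and at 163, 181, 168 and 162 CPM in cKO 2, 6, 7 and 8. Every cKO sample lay above every WT sample, and WT 4 and WT 9 were the lowest. The mean of 143 CPM ± 13.97 (SD, n = 5) in WT rose in cKO to 169 CPM ± 8.79 (SD, n = 4), a log2 change of 0.24 (SE 0.07, edgeR adjusted p = 0.0327). Nop56 was at 232, 233, 206, 233 and 213 CPM in the WT samples and at 238, 278, 245 and 252 CPM in the cKO samples. Again the groups did not overlap, with WT 4 lowest and cKO 6 well above the other samples. The mean of 224 CPM ± 12.9 (SD, n = 5) in WT rose in cKO to 253 CPM ± 17.6 (SD, n = 4), a log2 change of 0.18 (SE 0.05, edgeR adjusted p = 0.0466). Gnl3 (ENSMUSG00000042354) lies on the minus strand of chromosome 14 from 31012433 to 31019152 of mm10 and Nop56 (ENSMUSG00000027405) on the plus strand of chromosome 2 from 130274430 to 130279313, each with an exon that overlaps a gene of the opposite strand (Pbrm1 and Idh3b). The strand setting of the authors' counting is not given in the sources used here, so reads of such partners may be included.

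Since Gnl3 and Nop56 were the members that passed the test, the 150 bases before their start sites are shown. They come from the RefSeq promoter table on GRCm38.p6, the assembly of mm10, 5′ to 3′ on the strand of the gene. RefSeq start sites differ from the gene positions given above. The Gnl3 stretch therefore overlaps the gene as placed above, and the Nop56 stretch stops short of it. Capitals mark GGGCGG, the motif of Sp1 family factors, on either strand. Of 27025 genes in that table, 38.2% hold it in the 300 bases around a start site, and 68.0% of the 9931 of them that were tested here, as do 24 of the 31 members found there (77.4%).
Gnl3 (chr14:31019132-31019281, minus strand): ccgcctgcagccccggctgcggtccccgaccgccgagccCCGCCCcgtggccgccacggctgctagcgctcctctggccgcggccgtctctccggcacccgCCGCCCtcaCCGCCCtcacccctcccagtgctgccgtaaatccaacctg
Nop56 (chr2:130274262-130274411, plus strand): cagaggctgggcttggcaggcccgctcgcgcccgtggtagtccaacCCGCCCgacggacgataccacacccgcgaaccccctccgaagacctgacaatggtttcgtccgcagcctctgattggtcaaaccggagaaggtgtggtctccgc

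The genes moved together from sample to sample. WT 4 had the lowest value of all 9 samples in 31 of the 36 genes and WT 9 in 4, while cKO 6 had the highest in 30. WT 1 was the highest WT sample in 31 genes and exceeded the lowest cKO sample in 32. Averaged over the 36 genes, the log2 level relative to the mean of the 9 samples was 0.09, 0.007, -0.22, -0.03 and -0.16 in WT 1, 3, 4, 5 and 9 and 0.08, 0.19, -0.002 and 0.05 in cKO 2, 6, 7 and 8. The groups overlapped, since WT 1 lay above 3 of the cKO samples and WT 3 above cKO 7. The WT samples averaged -0.06 ± 0.13 (SD, n = 5), and the cKO samples averaged 0.08 ± 0.08 (SD, n = 4). In single genes the highest WT sample was a median of 1.25 times the lowest, and the median fold between the genotype means was 1.11. The sum of the members' reads was 0.817% to 1.01% of the total counts in WT and 0.982% to 1.13% in cKO.

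**Figure D1:**
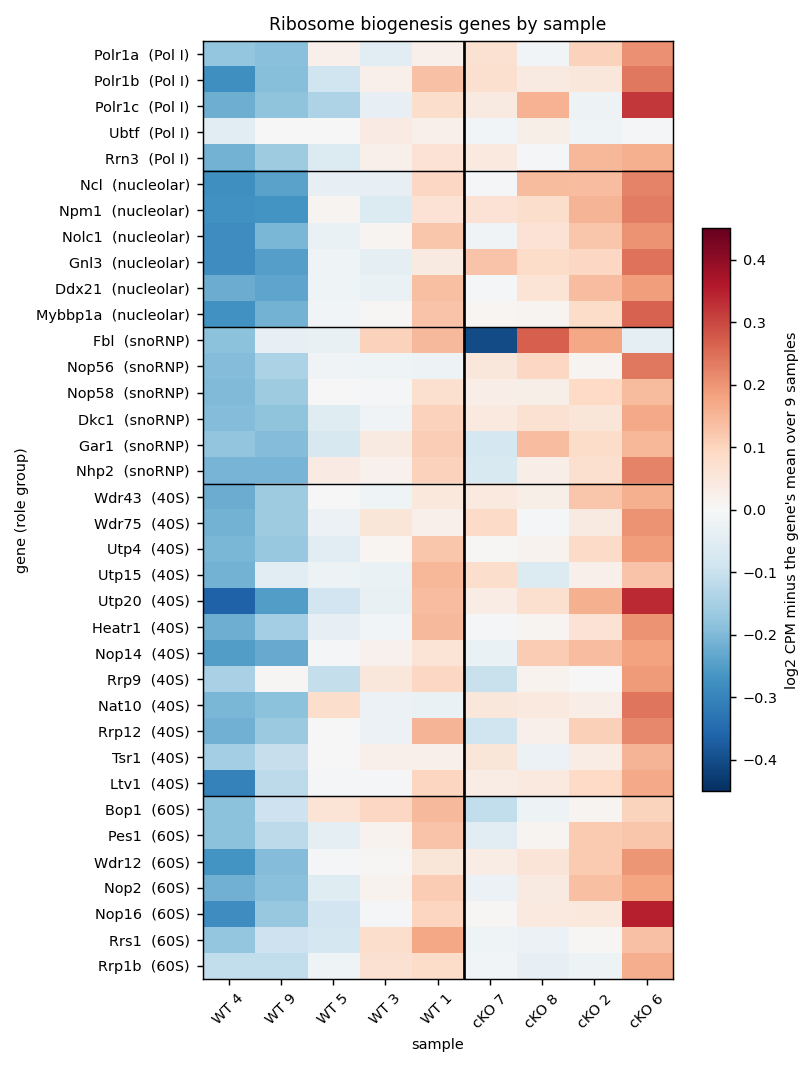
Log2 CPM of each of the 36 genes (rows, with role group) in each of the 9 samples (columns, ordered within genotype by the mean level of the genes), minus the gene's mean over the samples. Blue columns at WT 4 and WT 9 and the red column at cKO 6 run through nearly all rows, and Ubtf is close to white across its row.

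Among the genes of RNA polymerase I transcription none passed the test in edgeR. At unadjusted p under 0.05, 4 of 5 were higher, against 2182 of all 14693 genes tested. Polr1c, a subunit shared with RNA polymerase III, was at 67.2, 61.9, 54.6, 57.7 and 56.1 CPM in WT 1, 3, 4, 5 and 9 and at 62.6, 79.2, 65.4 and 70.9 CPM in cKO 2, 6, 7 and 8, so that WT 1 lay among the cKO samples (log2 difference 0.22, SE 0.08, edgeR adjusted p = 0.0707). The catalytic subunit genes Polr1a and Polr1b differed by 0.16 and 0.18, and Rrn3, the factor that brings the polymerase to the promoter, by 0.15. Ubtf, which encodes the protein that binds and keeps ribosomal DNA active, stood apart from them. Its values were 313, 315, 297, 308 and 307 CPM in WT and 304, 306, 305 and 313 CPM in cKO, a span of 1.06-fold among the WT samples, the smallest of the 36 genes. Its log2 difference was -0.005 (SE 0.03, edgeR adjusted p = 0.925), and it turned positive under several of the other settings.

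The 6 genes of nucleolar scaffold and multifunctional proteins had the largest median difference of the role groups, 0.19. Ncl and Npm1 encode nucleolin and nucleophosmin, which are among the most abundant nucleolar proteins. With Nop58 they held the highest read counts per length of transcript. The means over the samples were 353 CPM per kb for Ncl, 388 for Npm1 and 182 for Nop58. The value of Ncl rests on the annotated transcript used here, which is longer than those of Npm1 and Nop58. A shorter transcript would raise it, so the order of Ncl and Npm1 is uncertain. Npm1 was at 658, 604, 522, 636 and 523 CPM in the WT samples and at 699.9, 739, 659 and 665 CPM in the cKO samples, a log2 difference of 0.23 (SE 0.07). The lowest cKO sample, cKO 7, was above WT 1 by less than 1 CPM, and the adjusted p of 0.0506 in edgeR missed the threshold, while DESeq2 gave an adjusted p of 0.0242. Npm1 has processed copies elsewhere in the genome that could take some of its reads, so its level is uncertain. Ncl was at 3068, 2806, 2379, 2804 and 2434 CPM in WT and at 3169, 3363, 2858 and 3177 CPM in cKO (0.22, SE 0.07, edgeR adjusted p = 0.0654). Here WT 1 was higher than cKO 7, and the other WT samples were below all cKO samples. The helicase gene Ddx21, the snoRNP chaperone gene Nolc1 and Mybbp1a, a nucleolar regulator of pre-rRNA processing, differed by between 0.16 and 0.17 (edgeR adjusted p from 0.154 to 0.203).

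The snoRNP genes other than Nop56 had smaller differences. Nop58, its partner in the box C/D particles, was at 327, 309.8, 271, 311 and 278 CPM in WT and at 331, 344, 318 and 317 CPM in cKO (log2 difference 0.13, SE 0.06, edgeR adjusted p = 0.139). The pseudouridine synthase gene Dkc1 and its H/ACA partners Gar1 and Nhp2 differed by 0.15, 0.13 and 0.11. Fbl, the methyltransferase of the box C/D particles, had the fewest reads, at 17.2, 16.7, 13.7, 15.2 and 15.2 CPM in WT and 17.6, 15.2, 11.8 and 18.8 CPM in cKO. Its cKO values spread more than those of the other members, from the lowest to the highest of all 9 samples, and its log2 difference was 0.02 (SE 0.12, edgeR adjusted p = 0.930). Fbl was also at 13.1 CPM per kb of transcript, against 126 for Nop56 and 182 for Nop58, with which its protein forms a complex. Why its count was so low was not tested, so its level and its difference are uncertain.

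None of the 12 genes of the small subunit processome and 40S maturation passed the test, and all 12 had a difference above 0 (median 0.14). Utp20, a large scaffold protein of pre-ribosomes, had the widest spread among WT samples of the 36 genes, 1.42-fold. It was at 222, 198, 157, 190.1 and 169.6 CPM in WT and 226, 255, 207 and 213 CPM in cKO (log2 difference 0.26, SE 0.09, edgeR adjusted p = 0.0806). The U3-associated genes of the early processome differed by 0.18 (Nop14), 0.16 (Wdr43), 0.14 (Wdr75), 0.13 (Utp4), 0.12 (Heatr1), 0.07 (Utp15) and 0.05 (Rrp9). Nat10, the acetyltransferase of 18S RNA, differed by 0.16, and the factors of late 40S maturation and export Ltv1, Rrp12 and Tsr1 by 0.15, 0.12 and 0.10. Rrp9, a protein of the U3 particle, was at 56.5, 54.8, 47.8, 49.2 and 53.2 CPM in WT and 52.9, 60.5, 49.4 and 53.5 CPM in cKO, with overlapping groups and a difference of -0.0111 without cKO 6.

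The 7 genes of 60S maturation had the smallest median difference, 0.09, and none passed. Bop1, Pes1 and Wdr12 encode the 3 subunits of the PeBoW complex, which matures the large subunit RNA, and they differed by -0.01, 0.09 and 0.18. Bop1 was at 148, 143, 118, 139.9 and 126 CPM in WT and 135, 144, 124 and 132 CPM in cKO, with the groups interleaved (SE 0.07, edgeR adjusted p = 0.919), and its sign turned under other settings. Wdr12 was at 58.9, 56.9, 47.1, 56.5 and 49.5 CPM in WT and 61.5, 65.0, 58.0 and 59.0 CPM in cKO, where WT 1 overlapped the lowest cKO sample (SE 0.07, edgeR adjusted p = 0.0983). Its read count per length was the lowest, 5.69 CPM per kb. That rank rests on the annotated transcript of 10.01 kb used here, and Fbl came next at 13.1 CPM per kb. Nop16 differed by 0.20, the 28S RNA methyltransferase gene Nop2 by 0.145, and Rrp1b and Rrs1 by 0.04 each. Rrs1, an assembly factor of the large subunit, was at 101.8, 95.3, 79.95, 85.4 and 84.4 CPM in WT and 90.5, 98.8, 88.9 and 88.6 CPM in cKO, and Rrp1b was at 144, 142, 126, 134 and 126 CPM in WT and 134, 152, 135 and 132 CPM in cKO. In both genes WT 1 and WT 3 lay within or above the cKO range, and the sign of the difference turned without cKO 6 (-0.0007 for Rrs1 and -0.0083 for Rrp1b).

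**Figure D2:**
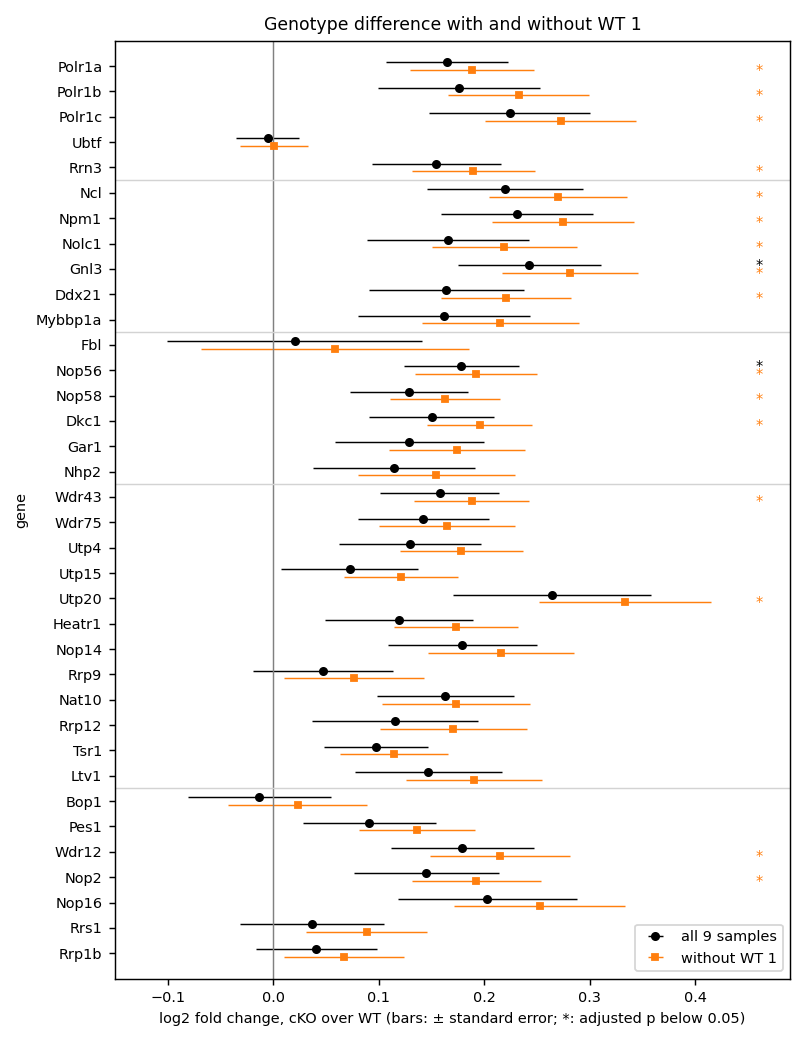
Log2 fold change of cKO over WT for each gene, with its standard error, fitted by edgeR on all 9 samples (black) and without WT 1 (orange), where an asterisk marks adjusted p below 0.05. Of the 36 genes, 2 carry a black asterisk and 16 an orange one, while Ubtf and Bop1 sit near 0 in both.

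The count of members that passed depended on single samples, and WT 1 was singled out after the values were seen. Without WT 1, 16 of the 36 genes rose and none fell, with 9.34% of all genes called higher. They included the 2 called with all samples, and were 4 of the 5 polymerase I genes (Polr1a, Polr1b, Polr1c and Rrn3), 5 of the 6 nucleolar genes (Ncl, Npm1, Nolc1, Gnl3 and Ddx21), the snoRNP genes Nop56, Nop58 and Dkc1, the processome genes Utp20 and Wdr43, and the 60S genes Wdr12 and Nop2. The median difference was then 0.188. Ncl was at 0.27 (SE 0.07, edgeR adjusted p = 0.0164), Gnl3 at 0.28 (SE 0.06, adjusted p = 0.0134), Npm1 at 0.27 (adjusted p = 0.0174) and Utp20 at 0.33 (SE 0.08, adjusted p = 0.0168).

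In the other direction, no member passed without WT 3, WT 4, WT 9, cKO 6 or cKO 8, when 4.73%, 4.46%, 4.53%, 3.59% and 4.27% of all genes were called higher. Without WT 5 the 2 called were Gnl3 and Npm1 (5.95% of all genes), without cKO 2 they were Gnl3, Nop56 and Polr1c (6.60%), and without cKO 7 only Ncl was called (5.35%). The adjusted p of Gnl3 over all 21 other fits ran from 0.0109 to 0.103 and that of Nop56 from 0.0251 to 0.136, with the highest of both without cKO 6. The 6 genes called by DESeq2 on all samples were Gnl3, Ncl, Nop56, Npm1, Polr1c and Utp20, against 7.21% of all genes with an adjusted p there. The groups did not overlap in 3 members, Gnl3, Nop56 and Npm1, with all samples (7.08% of all genes had every cKO above every WT sample) and in 16 without WT 1 (11.1%).

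**Figure D3:**
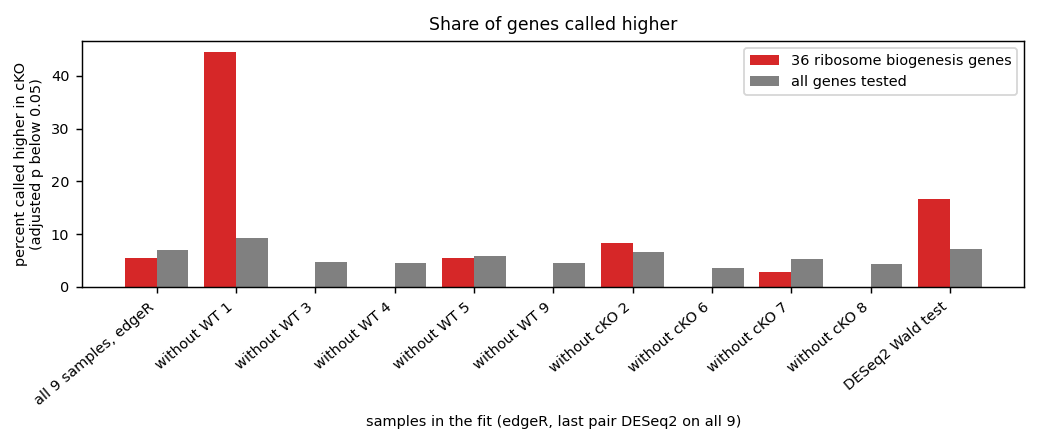
Percent of the 36 genes (red) and of all genes tested (grey) that were called higher in cKO, in edgeR on all 9 samples, with each sample left out in turn, and in DESeq2 on all 9. The members are at 44.4% without WT 1, at 0 in 5 of the fits with 1 sample left out, and at 16.7% in DESeq2.

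In Myc and in the mean level of the genes of T cell activation, too, WT 4 and WT 9 were the lowest samples and WT 1 the highest WT sample. Myc was at 430.2, 359, 307, 334 and 325 CPM in WT 1, 3, 4, 5 and 9 and at 378, 508, 432 and 414 CPM in cKO 2, 6, 7 and 8, with cKO 6 highest, WT 4 lowest and WT 1 inside the cKO range (log2 difference 0.30, SE 0.10, edgeR adjusted p = 0.0647, and 0.00893 without WT 1 but 0.192 without cKO 6). The list of 10 genes for Myc and its partners, several of which oppose Myc, did not follow that order. Its mean level was highest among WT samples in WT 9 (0.06) and WT 4 (0.02) and lowest of all in cKO 6 (-0.06), 5 of the 10 differences were above 0 (median -0.01), and 1 gene, Mga, rose and 1, Mxd3, fell. Both calls were lost without cKO 6 (edgeR adjusted p of 0.0679 and 0.137). The mean log2 level of 19 activation genes was 0.54, -0.02, -0.49, -0.13 and -0.41 in the WT samples and 0.08, 0.34, -0.01 and 0.11 in the cKO samples, so WT 1 was the highest and WT 4 and WT 9 the lowest of all. The activation genes did not all differ in 1 direction between the genotypes. Of the 19, 12 had a difference above 0 (median 0.10, from -0.34 to 1.11). In edgeR 0 of them were called higher and 1 lower, against 7.0% and 8.82% of all genes tested. With the mean level of the activation genes as a covariate in edgeR, a fit chosen after seeing the data, the median difference of the 36 genes was 0.076. In that fit 4 members were called higher and 0 lower, against 954 higher and 1197 lower of 14693 genes. Mdm2, a p53 target, rose by 0.21 (SE 0.06, edgeR adjusted p = 0.0358, and 0.112 without cKO 6). Its protein is bound by free ribosomal proteins when ribosome assembly fails. Trp53, which encodes p53, differed by 0.03 (edgeR adjusted p = 0.536) and the p53 target Cdkn1a by 0.57 (edgeR adjusted p = 0.0637). Mdm2 and Cdkn1a, too, were lowest in WT 4 and WT 9 and highest in cKO 6. The cause was not tested.

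**Figure D4:**
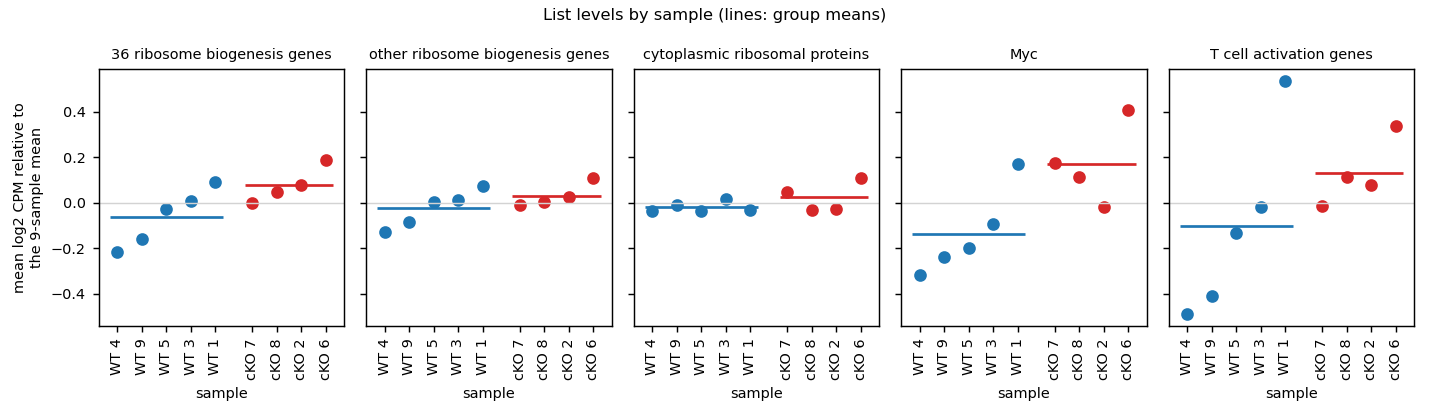
Mean log2 CPM relative to the mean of the 9 samples, by sample, for the 36 genes, the other ribosome biogenesis genes, the cytoplasmic ribosomal protein genes, Myc and the T cell activation genes, with WT in blue, cKO in red and group means as lines. WT 4 and WT 9 are lowest and WT 1 is the highest WT sample in all panels but that of the ribosomal proteins, where WT values span 0.05.

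Myc and its partner Max bind the E-box CACGTG, which reads the same on both strands. Of the 31 members with an entry in the RefSeq promoter table, 9 held it within 250 bases before to 50 after a start site, which is 29.0%, against 8.09% of all genes in the table and 11.8% of the 9931 genes with an entry that were tested. Each match is shown with up to 10 bases on either side on GRCm38.p6, E-box in capitals, fewer where the table's sequence ends. Most lie just after the start site, between positions 3 and 41, and those of Nop2 and Rrn3 lie before it, at -60, -215 and -48.
Ltv1 (chr10:13193094-13193119, minus strand): cctgtggaccCACGTGtggagctgcc
Mybbp1a (chr11:72441357-72441376, plus strand): cttctgagccCACGTGtttg
Nop2 (chr6:125131813-125131838, plus strand): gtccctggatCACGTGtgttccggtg
Pes1 (chr11:3963967-3963992, plus strand): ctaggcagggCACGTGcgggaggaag
Rrn3 distal (chr16:13780474-13780499, plus strand): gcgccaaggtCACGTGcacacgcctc
Rrn3 proximal (chr16:13780641-13780666, plus strand): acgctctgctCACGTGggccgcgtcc
Tsr1 (chr11:74898094-74898119, plus strand): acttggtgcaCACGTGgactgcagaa
Utp20 (chr10:88826765-88826787, minus strand): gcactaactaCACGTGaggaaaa
Utp4 (chr8:106893645-106893670, plus strand): cgcaagcgcgCACGTGgggccggggc
Wdr43 (chr17:71616222-71616247, plus strand): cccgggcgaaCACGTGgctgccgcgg

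Members with and without these letters had like differences. The median log2 difference was 0.15 in the 9 with an E-box (from 0.09 to 0.26) and 0.16 in the 22 without (from -0.005 to 0.24). Neither Gnl3 nor Nop56, the members called with all samples, was among the 9. The ETS motif CCGGAAG, on either strand, was in 10 of the 31 members, 32.3%, against 9.93% of all genes in the table and 20.7% of those tested, with medians of 0.14 with and 0.16 without it. For the Sp1 motif GGGCGG, held by 24 of the 31 (77.4%, against 68.0% of those tested), the medians were 0.16 with it and 0.13 in the 7 without. A match says only that the letters are there.

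In genome position the members shared little, lying on 17 chromosomes, but 7 of them (Ncl, Gnl3, Nop56, Nop58, Dkc1, Wdr43 and Tsr1) contain annotated snoRNA genes on their own strand, 21 in all. Their median difference was 0.16, against 0.145 in the other 29. In all, 15 of the 36 members have exons that overlap an exon of a gene on the opposite strand.

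Outside the 36 genes, 131 other genes of ribosome biogenesis were tested, of which 5 rose, 2 fell and 124 did not pass, shares below the background of 7.0% higher and 8.82% lower. Their median difference was 0.06, and 98 were above 0. None of 10 other polymerase I genes passed (median -0.01). Of 11 snoRNP and assembly genes, Pih1d1, a cofactor of the chaperone complex that assembles the particles, fell by 0.23 on the log2 scale (SE 0.05, edgeR adjusted p = 0.0127). Of 43 genes of the small subunit, Krr1 and Esf1, both nucleolar processing factors, rose by 0.26 (SE 0.07, adjusted p = 0.0230) and 0.21 (SE 0.05, adjusted p = 0.0256). Of 53 genes of the large subunit, 3 rose: Tma16 by 0.38 (SE 0.09, adjusted p = 0.0164), Rbm28 by 0.19 and Mdn1, the ATPase that strips assembly factors from the pre-60S particle, by 0.22. Of 14 exosome and nuclease genes, the exosome subunit gene Exosc5 fell by 0.16 (SE 0.05, adjusted p = 0.0364). The level of these 131 genes followed the same samples, at 0.07 in WT 1, -0.13 in WT 4, -0.08 in WT 9 and 0.11 in cKO 6. Without WT 1, 9 rose and 2 fell, and without cKO 6 none rose and 1 fell. With WT 3, WT 4, WT 9 or cKO 8 left out, 3, 2, 1 and 1 rose, and 1 fell each time.

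The cytoplasmic ribosomal protein genes, whose products the 36 genes help to assemble, shared the pattern over samples only in part. Their mean level ran from -0.04 to 0.02 in WT, where WT 4 and WT 5 were at -0.04, WT 1 at -0.03 and WT 9 at -0.008. It was highest in cKO 6 at 0.11, the highest sample in the 36 genes as well. The median difference of the 78 tested was 0.03. Of them, 2 rose (2.56%, against 7.0% of all genes tested) and none fell (against 8.82%). Among them was Rpl15, which rose by 0.19 (SE 0.06, edgeR adjusted p = 0.0485) and has processed copies elsewhere in the genome, so that its value is uncertain. Without WT 1, 2 rose as well, while none rose without WT 4, cKO 6, cKO 7 or cKO 8, 1 without WT 3 or WT 5, 3 without WT 9 and 7 without cKO 2. The difference between these genes and the 36 was not tested.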

How the data were processed

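Stranded mRNA libraries were made with a KAPA kit, per the labels' protocols. The authors deposited raw read counts per gene, whole numbers with no normalization. The submitters' processing notes name bcl2fastq 2.17 and mm10. For the aligner, the counter with its strand setting, and the annotation, the entry is "not given in the sources used here". Of 39017 IDs, 37607 matched a symbol, and 0 columns belonged to no sample. Total counts ran from 20587482 to 26387488 per sample, and since no molecular identifiers were counted, reads may repeat a molecule.

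The test was edgeR 4.0.16 quasi-likelihood (R 4.3.3) on all 9 samples, after filterByExpr and TMM scaling, without covariates. Tests were two-sided, and p-values were adjusted by Benjamini-Hochberg over 14693 genes. CPM are scaled by TMM, and log2 levels use a prior count of 2. Lengths are those of the principal transcript in GENCODE M21, the longest where several shared the best rank. GENCODE positions are on mm10. Promoter sequences came from RefSeq.

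Alternatives were DESeq2 1.42.0 and its size factors, upper-quartile scaling, library totals, other filters and thresholds, limma 3.58.1 voom with and without sample weights, robust fitting, 1 surrogate variable (sva 3.50.0), GC and length offsets, and leaving out each sample. A covariate for the activation list was added after seeing the data. The members and lists (role groups, other pathway genes, Myc network, ribosomal proteins, activation and cell markers) were chosen with earlier results of these data known. Values in every sample were to be given for up to 14 called members with the smallest adjusted p, the 3 members with the highest and the 1 with the lowest count per length, and those whose call was lost or whose sign turned under an alternative. Those of Polr1c and Utp20, and the names of the called CD4, CD8 and natural killer markers and of the called Myc partners, were added after their values were seen. Members called only under an alternative are otherwise given by their log2 difference. Of other pathway genes, up to 4 called per role group are named, of ribosomal proteins up to 3 (the values of 1 are not reported here), and Myc, Kdm6a, Mdm2, Cdkn1a and Trp53 in any case. The edgeR function was tested on simulated data.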

Additional observations from a re-analysis of the deposited data

Results flagged for a closer look

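In 5 of the 36 genes the sample cKO 6 lay far above the other 3 cKO samples for the spread of its group. It was at 136 CPM for Polr1b, with the others from 119 to 122 CPM, at 279.5 CPM for Dkc1, with the others from 256 to 259.9 CPM, and at 119 CPM for Nat10, with the others from 103 to 104 CPM. Nop16 was at 82.05 CPM there against 64.6 to 66.6 CPM, and Rrp1b at 152 CPM against 132 to 134.5 CPM. Of 72 groups examined (36 genes in 2 genotypes), chance flags about 1 in 20, and the genes are not independent, since they vary together over the samples.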

How the results depend on the processing

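The number of members called higher, 2 with edgeR on all samples, was 4 with 1 surrogate variable, with sample weights in limma-voom, without a count filter and with the activation covariate, which was chosen after seeing the data. It was 5 with upper-quartile scaling, 6 with DESeq2, 7 with library totals, 0 at an adjusted p under 0.01 and 9 under 0.1. Leaving out 1 sample gave 0 to 16, and no member was called lower (0 to 0). The members' median was 0.1484 with all samples, above 0 in each of these fits but lowest, at 0.0708, with 1 surrogate variable, and from 0.1113 to 0.1883 with 1 sample left out.

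Of the other pathway genes, 5 were called higher, with 3 under GC and length offsets, 8 with library totals, 0 at 0.01 and 0 to 9 with 1 sample left out. The 2 called lower became 5 with the surrogate variable, 4 with the activation covariate, voom weights or a threshold of 0.1, 1 with library totals, upper-quartile scaling or no filter, 0 at 0.01, and 1 to 2 with 1 sample left out. The 2 ribosomal protein genes called higher became 1 with the surrogate variable or GC and length offsets, 4 with DESeq2, 5 with library totals, upper-quartile scaling or voom weights, 7 at 0.1, 0 with the activation covariate, no filter or a threshold of 0.01, and 0 to 7 with 1 sample left out. Those called lower numbered 1 with voom weights and 0 to 1 with 1 sample left out. Over all genes, 302 were higher and 485 lower at 0.01, 1571 higher at 0.1, and leaving out 1 sample gave 531 to 1363 higher and 732 to 1570 lower.

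The sign turned in 6 members with differences near 0. Ubtf was at 0.0268 with GC and length offsets, 0.0177 with library totals, 0.0130 with upper-quartile scaling, and -0.0181 to 0.0043 with 1 sample left out (0.0003 without WT 1). Bop1 was at 0.0281, 0.0102 and 0.0058 under those 3 settings and -0.0578 to 0.0231 with 1 left out (0.0099 without WT 3, 0.0210 without cKO 7). With the surrogate variable and the activation covariate, Fbl was at -0.0686 and -0.0423, Rrp9 at -0.0038 and -0.0085, Rrs1 at -0.0327 and -0.0384, and Rrp1b at -0.0133 and -0.0141. Fbl was at -0.0065 with voom weights and -0.0708 to 0.1361 with 1 left out (-0.0227 without WT 4, -0.0343 without cKO 2). Rrp9 ran from -0.0111 to 0.088, Rrs1 from -0.0011 to 0.0884 (-0.0007 without cKO 6) and Rrp1b from -0.0083 to 0.0669. The cause was not tested in any of these. No paired analysis was possible because the labels give no pairing of WT and cKO samples.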
